A study of Mus musculus with 64 samples.

Results

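The 7 genes described here encode phosphofructokinases and the enzymes that regulate them: Pfkl, Pfkm and Pfkp, and Pfkfb1, Pfkfb2, Pfkfb3 and Pfkfb4. They were taken by gene name, and all 7 were found among the 19521 genes of the deposited tables. The libraries come from 4 organs of male mice (strain label C57BL/6, in the protocol C57BL/6J): heart, muscle, liver and WAT, here white adipose tissue. The mice were either wild-type (CTRL) or Pklr-/- mutants (labelled KO), Pklr encoding a pyruvate kinase found in liver and erythrocytes, and all ate chow until 8 weeks of age. From then on they stayed on chow or received a high-sucrose diet (HSD) for 8 weeks, and were killed at 16 weeks. The 64 libraries form 16 groups of 4, one for each tissue, genotype and diet, and the protocol gives 4 mice to each genotype and diet. The labels do not say how the mutation was made or whether it is limited to a tissue.

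Phosphofructokinase converts fructose 6-phosphate to fructose 1,6-bisphosphate, the committed step of glycolysis. The enzyme is a tetramer of subunits from Pfkl (the liver type), Pfkm (the muscle type) and Pfkp (the platelet type), in proportions that differ between tissues. Fructose 2,6-bisphosphate is its strongest allosteric activator and an inhibitor of fructose 1,6-bisphosphatase. The Pfkfb genes encode bifunctional enzymes with a kinase that makes this signal and a phosphatase that removes it: Pfkfb1 is the liver and muscle form, Pfkfb2 the heart form, Pfkfb3 an inducible form with little phosphatase activity, and Pfkfb4 a form first described in testis. In liver, insulin and glucagon set the balance of the Pfkfb1 activities through phosphorylation, which RNA levels do not show.

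The RefSeq table (build GRCm38.p6) places the genes on separate chromosomes. Pfkl lies on chromosome 10 at 77986947 to 78009807, Pfkm on 15 at 98092589 to 98132447 and Pfkp on 13 at 6579874 to 6649060. Pfkfb1 lies on X at 150587445 to 150643878, Pfkfb2 on 1 at 130689043 to 130729253, Pfkfb3 on 2 at 11471430 to 11554071 and Pfkfb4 on 9 at 108988272 to 109032236. Pfkm overlaps Senp1, Pfkp overlaps Pitrm1, Pfkfb1 overlaps Apex2 and Pfkfb2 overlaps Yod1. The sources used here do not state whether strand was used, so reads from such overlaps cannot be told apart between the genes.

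RefSeq start sites were found for all 7 genes, 16 in all. The 250 bases before 6 of them are shown, written 5′ to 3′ on the gene's strand. They belong to the members whose levels differ most between tissues or that passed a test of diet or genotype. Which of a gene's windows is shown was chosen after their values were seen. Capitals mark 3 short motifs searched on both strands, of which no matches overlapped each other in these windows: the E-box CACGTG, the GC box GGGCGG and the CCAAT box CCAAT.
Pfkfb1 at chrX:150587993-150588242, plus strand: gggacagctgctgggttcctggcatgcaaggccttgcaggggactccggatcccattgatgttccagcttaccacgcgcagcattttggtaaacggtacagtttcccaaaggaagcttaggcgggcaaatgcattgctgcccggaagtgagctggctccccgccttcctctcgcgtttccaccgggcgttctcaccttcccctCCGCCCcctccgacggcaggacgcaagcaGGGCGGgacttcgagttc
Pfkfb1 at chrX:150589666-150589915, plus strand: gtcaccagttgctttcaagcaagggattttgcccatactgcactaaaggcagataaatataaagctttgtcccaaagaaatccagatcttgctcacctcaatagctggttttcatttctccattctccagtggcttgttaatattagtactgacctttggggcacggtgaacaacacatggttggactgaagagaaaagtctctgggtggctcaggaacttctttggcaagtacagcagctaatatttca
Pfkfb2 at chr1:130715822-130716071, minus strand: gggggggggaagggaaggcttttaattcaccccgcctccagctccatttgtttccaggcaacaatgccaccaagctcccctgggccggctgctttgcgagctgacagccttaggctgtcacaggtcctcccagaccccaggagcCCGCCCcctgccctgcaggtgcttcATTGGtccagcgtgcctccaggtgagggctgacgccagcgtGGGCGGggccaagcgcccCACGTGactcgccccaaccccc
Pfkfb3 at chr2:11502091-11502340, minus strand: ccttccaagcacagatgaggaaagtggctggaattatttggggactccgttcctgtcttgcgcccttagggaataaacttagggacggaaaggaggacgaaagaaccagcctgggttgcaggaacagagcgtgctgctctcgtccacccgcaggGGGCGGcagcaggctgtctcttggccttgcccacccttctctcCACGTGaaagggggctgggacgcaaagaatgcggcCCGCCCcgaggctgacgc
Pfkm at chr15:98092339-98092588, plus strand: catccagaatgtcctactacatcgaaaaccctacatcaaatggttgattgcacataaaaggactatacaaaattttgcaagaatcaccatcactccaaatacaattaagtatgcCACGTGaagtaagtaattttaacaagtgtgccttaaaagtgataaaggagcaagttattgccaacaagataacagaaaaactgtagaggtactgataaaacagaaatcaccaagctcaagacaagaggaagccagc
Pfkp at chr13:6648772-6649021, minus strand: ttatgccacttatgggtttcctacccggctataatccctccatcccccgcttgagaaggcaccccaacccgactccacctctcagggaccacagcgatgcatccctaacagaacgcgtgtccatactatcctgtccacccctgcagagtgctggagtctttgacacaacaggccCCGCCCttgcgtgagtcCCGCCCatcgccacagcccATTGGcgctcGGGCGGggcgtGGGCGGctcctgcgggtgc
The E-box stood in 3 of the 16 windows, 1 each of Pfkfb2, Pfkfb3 and Pfkm, and in 6.02% of all 32851 windows of that length. All 3 are among the windows shown, so the E-box is more frequent in those than in the 16. The GC box stood in 6 of 16, against 32.7% of all windows, and the CCAAT box in 5 of 16, against 33.8%. The 2 Pfkfb1 windows differ in base composition: the first has 61.6% G and C with 17 CpG pairs, the second 42.8% with 1 CpG pair, while the median window has 52.4% and 6. The Pfkm window shown is A and T rich, with 36.4% G and C, and lies within Senp1. The first Pfkfb1 window shown overlaps Apex2. A match is a string of letters and not a shown binding site, and the gene-level tables do not say which start was used.

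The libraries held 5724366 to 12188623 estimated counts for the listed genes. Pklr, the gene named in the genotype, was higher in labelled-KO than in CTRL liver: on HSD its TPM was 314, 416, 459 and 432 in labelled KO and 263, 216, 217 and 154 in CTRL, and on chow 246, 268, 187 and 147 against 61.6, 139, 141 and 110. The label is therefore kept as a label in all that follows. In liver the labelled-KO libraries all had lower total counts (at most 7940378) than the CTRL libraries (at least 8211776). The main marker lists were highest in the tissue named by the label, though not absent elsewhere. The summed TPM of 6 hepatocyte genes was 30600 to 91800 in liver and up to 5310 in WAT. That of 6 adipocyte genes was 32300 to 41800 in WAT and up to 674 in heart. That of 6 cardiomyocyte genes was 24400 to 32200 in heart and up to 10100 in muscle. That of 8 fast-fibre genes was 35900 to 45000 in muscle and up to 245 in heart. A list of 4 brown or beige adipocyte genes was higher in liver (106 to 478) than in WAT (3.27 to 22.4). Of the marker genes, Ucp1 was at 0 in all liver libraries, and Ly6g in all WAT and all heart libraries. A score of clock output genes over clock activators, on a log2 scale, differed between groups: in liver it was -2.69 to -0.01 in CTRL on HSD and 0.47 to 3.52 in the other libraries, and in WAT it was 2.46 to 3.301 in labelled KO on HSD and -1.59 to 1.43 in the others. The score takes the mean log2 level of the outputs Dbp, Tef, Hlf, Ciart, Per2 and Per3 and subtracts that of the activators Clock, Npas2 and Arntl. Replicates are taken as the labels give them; if they share more than a group, p-values measure only the spread between these libraries.

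The main form of each enzyme differed between tissues. Levels are given as TPM, the share of a transcript among all transcripts of a library after correction for length, which allows genes to be compared within a library. In bulk RNA fewer cells of a type and less RNA per cell cannot be told apart. Pfkm dominated muscle and heart. Over the 16 libraries of a tissue its TPM ran from 496 to 708 in muscle (median 572), 187 to 326 in heart (271), 13.4 to 20.96 in WAT (16.0) and 4.25 to 8.87 in liver (6.84), with no overlap between tissues. In muscle Pfkm made up 98.6 to 99.2% of the summed TPM of the 3 phosphofructokinase genes, and in heart 88.9 to 91.6%.

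In WAT no single subunit gene took most of the sum in all libraries. Pfkp, at 23.3 to 57.1 TPM, made up 32.3 to 53.9% of the sum. Pfkl, at 27.1 to 44.6 TPM, had a median share of 38.8%, and Pfkm took 13.4 to 24.7%. Liver, which gives Pfkl its name, had little of any of them. Pfkl was at 4.24 to 9.77 TPM there, below its level in every WAT library and overlapping its range in heart (7.44 to 21.8). Muscle had 1.58 to 4.64 TPM of Pfkl. In liver Pfkl took 35.3 to 58.6% of the sum and Pfkm 34.8 to 58.3%, so neither was the major form in every library. Pfkp was lowest in liver, at 0.468 to 2.40 TPM, which rests on 10.6 to 38.4 estimated counts per library. Muscle had 2.42 to 5.29 TPM of Pfkp and heart 8.94 to 16.9.

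Among the bifunctional genes, Pfkfb3 stood out in WAT. Its TPM there was 244, 239, 309 and 340 in CTRL on chow, 131, 192, 242 and 234 in CTRL on HSD, 284, 336, 210 and 214 in labelled KO on chow, and 284, 181, 345 and 413 in labelled KO on HSD. Every WAT library exceeded every library of the other tissues, where the highest was 25.6 in liver, 10.4 in muscle and 2.905 in heart. Pfkfb3 supplied 62.7 to 86.9% of the Pfkfb sum in WAT. Pfkfb1, the liver and muscle form, supplied 65.8 to 89.4% in liver and 53.8 to 75.5% in muscle. Its TPM ranges in WAT (36.97 to 84.9) and liver (29.7 to 69.7) overlapped, and it was lower in muscle (13.8 to 28.3) and heart (2.82 to 8.76). Pfkfb2 supplied 50.8 to 81.7% in heart, at 12.4 to 23.9 TPM, and was below that range in every library of the other tissues, of which the highest was 9.81 in muscle. Pfkfb4 was at 0 in 10 of 16 liver and 7 of 16 heart libraries, with at most 0.372 and 0.624 TPM, and at 1.04 to 7.67 in WAT and 1.05 to 4.11 in muscle.

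**Figure D1:**
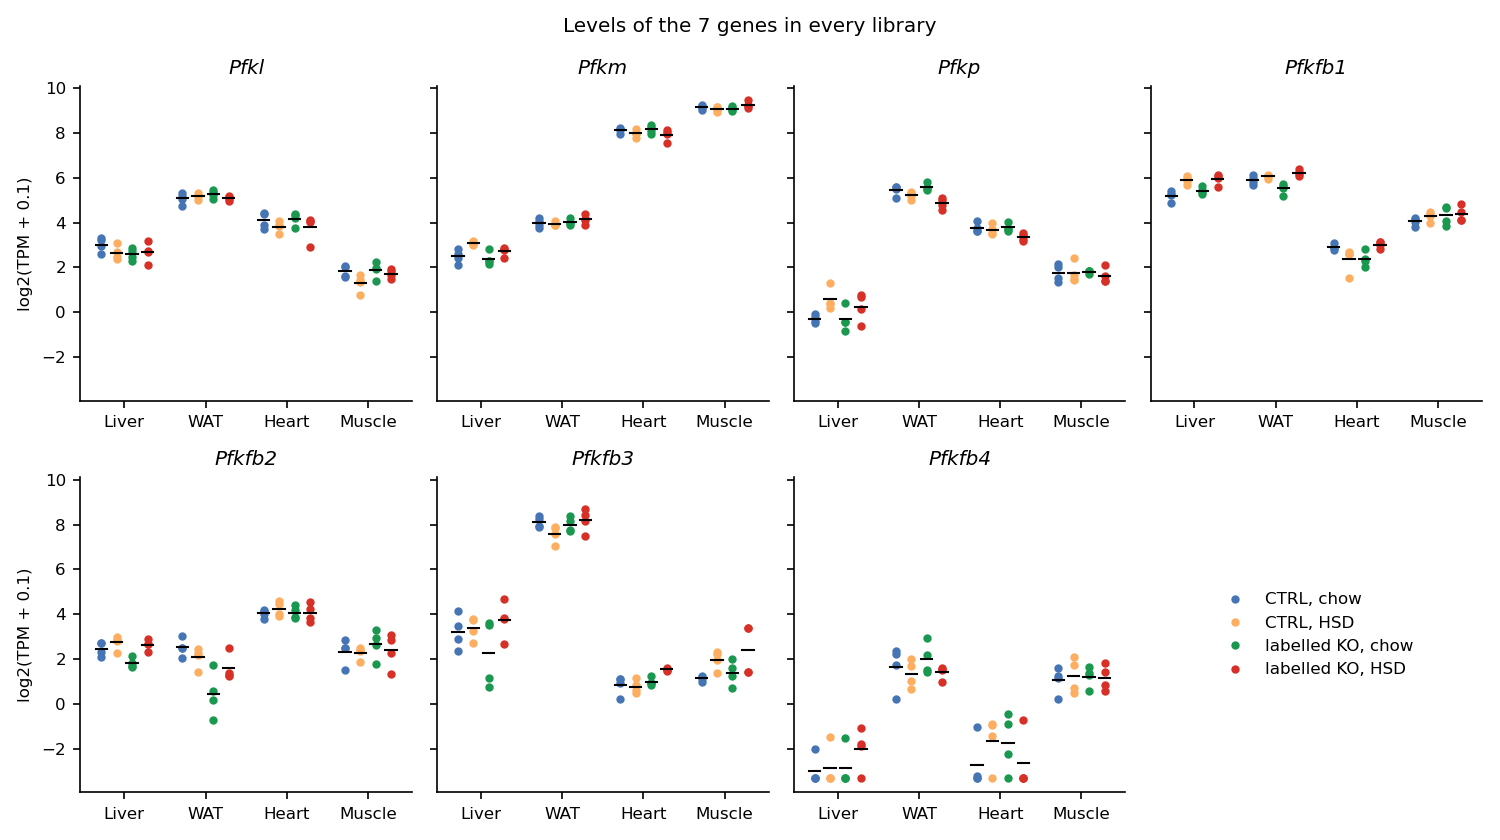
Level of each of the 7 genes in every library, as log2(TPM + 0.1), by tissue (horizontal axis) and by genotype and diet (colour); each point is 1 of 4 libraries of a group and each bar the mean of the 4 log2 values. Pfkm is highest in muscle and heart, Pfkfb3 in WAT and Pfkfb2 in heart, and these differences between tissues exceed those between diets or genotypes within a tissue.

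The ratio of the 2 families also differed. Summed TPM of the Pfkfb genes divided by that of the Pfk genes was, in CTRL on chow, 3.79 ± 1.2 in liver and 3.75 ± 0.29 in WAT, but 0.0833 ± 0.012 in heart and 0.0452 ± 0.005 in muscle (SD, n = 4). In liver and WAT the RNA of the regulators thus exceeded that of the enzyme, and in both muscles the reverse held. These ratios and shares are taken within a library and do not depend on how libraries are scaled to each other.

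**Figure D2:**
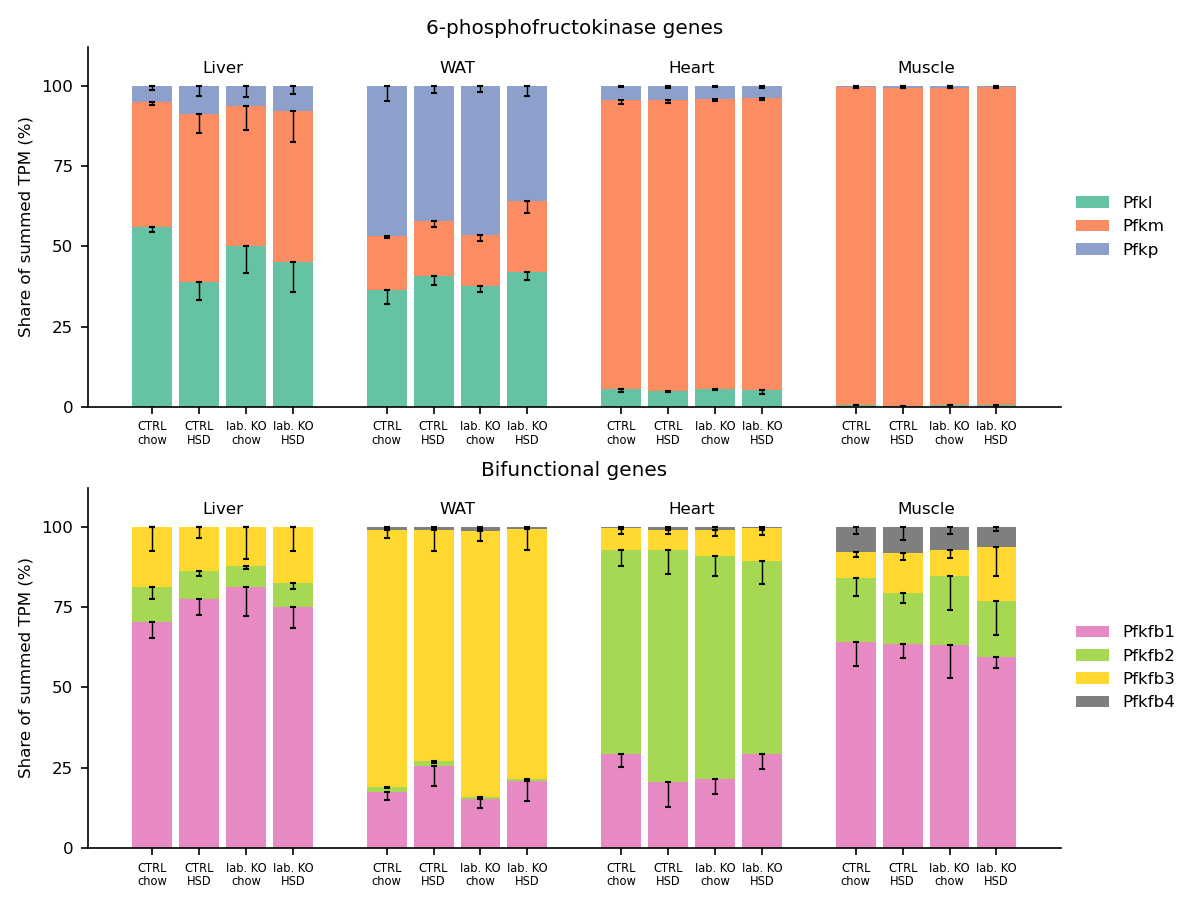
Share of each gene in the summed TPM of its family, in percent, for the 16 groups: the upper panel shows the 3 phosphofructokinase genes and the lower the 4 bifunctional genes, bars give the mean of 4 libraries and the lines hanging from the top of each segment its SD. Pfkm fills nearly the whole bar in muscle, Pfkfb3 most of the bar in WAT, Pfkfb1 most of it in liver and muscle, and Pfkfb2 most of it in heart.

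The 6 pairs of tissues were compared in the 16 libraries of CTRL on chow, by edgeR's quasi-likelihood test on counts, with p-values adjusted by Benjamini-Hochberg over 13707 genes and a threshold of 0.05. In each pair 6 of the 7 members passed. Most genes did: 73.4% for WAT against liver, 71.2% for heart against liver, 73.7% for muscle against liver, 64.7% for heart against WAT, 73.8% for muscle against WAT and 49.2% for muscle against heart, so a call between these tissues is common and says little of a single gene. Pairs that share a tissue share its libraries. Levels relative to WAT depend on the scaling: between TPM and TMM-scaled counts the median of all genes moved by 1.14 (log2) for WAT against liver, and by at most 0.0545 between tissues other than WAT.

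On the count scale Pfkm was 6.53 log2 units higher in muscle than in liver (edgeR adjusted p = 1.9e-16), 5.62 higher in heart than in liver and 0.90 higher in muscle than in heart (edgeR adjusted p = 1.2e-05). Pfkm in WAT and liver, neighbours in that order, did not pass on the count scale (-0.13, edgeR adjusted p = 0.394) and was 1.35 higher in WAT on the TPM scale (limma adjusted p = 2.0e-08). Pfkp in heart and WAT did not pass on counts (-0.08, edgeR adjusted p = 0.619) and was 1.61 log2 units lower in heart on TPM. Pfkl was 0.61 higher in heart than in WAT on counts but 0.93 lower on TPM, so its order between these tissues is not settled. Pfkfb4 was near 0 in liver and heart, where its fitted fold changes depend on the prior count. Pfkfb3 was higher in WAT than in liver on both scales, by 3.23 on counts and 4.78 on TPM, and its difference between muscle and heart did not pass on either (0.16 on counts, edgeR adjusted p = 0.738). Pfkfb1 was 0.97 lower in WAT than in liver on counts (edgeR adjusted p = 1.3e-05) but 0.71 higher on TPM. Pfkfb2 was 2.99 higher in heart than in WAT and 1.45 higher than in liver on counts, and 1.38 and 1.43 on TPM. Pfkfb2 in muscle and liver did not pass on either scale (-0.24 on counts, edgeR adjusted p = 0.38), and Pfkfb4 in muscle and WAT did not pass on either (0.68 on counts, edgeR adjusted p = 0.357).

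The sucrose diet went with more Pfkfb1 RNA in liver. In CTRL liver its TPM was 38.3, 29.7, 42.2 and 37.1 on chow and 63.2, 58.6, 67.7 and 51.6 on HSD. Every HSD library lay above every chow library. The log2 fold change was 0.61 ± 0.15 (SE, n = 4 per group), with an edgeR adjusted p of 0.0278 over 11259 genes. Pfkfb1 was the only 1 of the 6 members tested to pass, where 4.67% of all genes did. In labelled-KO liver Pfkfb1 was 41.2, 49.2, 44 and 39.1 on chow and 48.95, 63.95, 69.7 and 67.8 on HSD, the lowest HSD library falling just inside the chow range (0.39 ± 0.15, edgeR adjusted p = 0.354); 0 members and 0.00888% of genes passed there, 2 members had an unadjusted p under 0.05, and DESeq2 and limma called 0. Averaged over the genotypes Pfkfb1 rose by 0.50 ± 0.10 (edgeR adjusted p = 0.0114), where 5.59% of genes passed. The interaction of diet and genotype called 0 members and 0% of genes; Pfkfb2 had an unadjusted p under 0.05, and DESeq2 and limma called 0 members.

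The call for Pfkfb1 in CTRL liver was lost when any 1 of 6 single libraries was left out (CTRL chow replicates 1, 2 and 4, and CTRL HSD replicates 1, 2 and 3), with log2 fold changes of 0.50 to 0.70 over all single omissions. With the clock score as a covariate the edgeR adjusted p was 0.477 for CTRL and 0.0535 for the mean over genotypes. In CTRL liver the score was 0.47 to 2.835 on chow and -2.69 to -0.01 on HSD, without overlap. Score and diet therefore cannot be told apart in CTRL. Over all alternative settings the log2 fold change in CTRL was 0.51 to 0.71. The summed hepatocyte markers were 30600 to 70800 TPM in CTRL on chow and 80500 to 87700 on HSD, while 0 of 6 hepatocyte genes passed. Summed endothelial markers were 16.9 to 21.5 TPM on chow and 24.1 to 34.9 on HSD, with 2 of 5 genes higher. The genes listed as brown or beige adipocyte markers summed to 106 to 213 and 220 to 478, with 2 of 2 tested higher and Ucp1 at 0. The 2 tested include Ppargc1a, which is counted again among the regulators below, so their rise does not by itself mark fat cells. Summed erythroid markers were 126 to 210 and 86.6 to 276, with 1 of 3 lower. The part of these markers in the result was not tested.

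No other member passed edgeR's test in liver. Other tools called Pfkm and Pfkfb2 for the diet. For the mean over genotypes, limma on log2(TPM + 1) leaned upward, with 890 of 11259 genes higher and 136 lower. There edgeR called 300 and 329, and DESeq2 480 and 494. In CTRL, DESeq2 called 478 genes higher and 431 lower. Pfkm in CTRL was 5.64 ± 1.2 TPM on chow and 8.35 ± 0.36 on HSD (SD, n = 4), without overlap (0.49 ± 0.16 on counts, edgeR adjusted p = 0.0837; DESeq2 adjusted p = 0.0491). Its mean diet difference over the genotypes was 0.34 ± 0.11 (edgeR adjusted p = 0.0885; limma on log2(TPM + 1), 0.0304), and edgeR called it without labelled-KO chow replicate 2 (0.0268) or labelled-KO HSD replicate 1 (0.038). Pfkl in CTRL was 8.15 ± 1.7 and 6.37 ± 1.5, with overlap. Pfkp in CTRL was at 0.607 to 0.847 TPM on chow and 1.03 to 2.40 on HSD, without overlap in TPM (0.50 ± 0.29 on counts, edgeR adjusted p = 0.333). Its estimated counts, not scaled for depth, did overlap, at 14.8 to 21.99 on chow and 19.05 to 38.35 on HSD. The ratio of count to TPM for Pfkp, relative to its mean, ran from 0.567 to 1.5 over the liver libraries. The mean share of Pfkl in CTRL liver was 56.1% on chow and 39.02% on HSD, and that of Pfkm 38.8 and 52.01%. Pfkfb2 in labelled-KO liver was 3.05, 4.23, 3.16 and 3.404 TPM on chow and 6.17, 6.36, 4.89 and 7.23 on HSD, without overlap (0.77 ± 0.20, edgeR adjusted p = 0.151). Its mean diet difference over the genotypes was 0.46 ± 0.14 (edgeR adjusted p = 0.058), which DESeq2 (0.0298) and limma on log2(TPM + 1) (0.0246) called, as did edgeR with 1 library omitted, either CTRL HSD replicate 1 (0.0224) or replicate 3 of labelled KO on HSD (0.0401). Pfkfb3 spread widely within groups, from 1.57 to 12.1 TPM in labelled KO on chow and from 4.98 to 17.8 in CTRL on chow. Pfkfb4 did not pass the filter on low counts in liver and was not tested.

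No member passed for genotype in liver: labelled KO against CTRL called 0 members and 0% of genes on chow, 0 members and 0.0711% on HSD, and 0 members and 0% on average. At an unadjusted p under 0.05 the counts were 1, 0 and 1, all Pfkfb2, which on chow was at 3.46 ± 0.53 TPM in labelled KO and 5.504 ± 1.2 in CTRL (edgeR adjusted p = 0.196). Of all 11259 genes 1377, 660 and 1079 had such a p on chow, on HSD and on average. DESeq2 and limma called 0 members in these comparisons too. Pfkm on HSD was lower in labelled KO (5.28 to 7.23 TPM) than in CTRL (8.05 to 8.87) without overlap and did not pass (-0.31 ± 0.16, edgeR adjusted p = 0.888).

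Among the other genes of glycolysis in liver, 2 of 23 tested rose on HSD in CTRL and 0 fell. Among them was Gpi1, which makes the fructose 6-phosphate that phosphofructokinase uses (0.76 ± 0.15, edgeR adjusted p = 0.0122). Pgam1 (0.32, edgeR adjusted p = 0.0567) and Pklr (0.88, edgeR adjusted p = 0.0674) did not pass. The median of the list was 0.18, against -0.02 for all genes. On average over the genotypes 4 of 23 rose and 0 fell, among them Gpi1 at 0.76, Pklr at 0.84 and Slc2a4 at 1.25. Of 18 regulators and neighbours in signalling, 2 rose in CTRL, Ppargc1a (1.15 ± 0.20, edgeR adjusted p = 0.00712), a coactivator of fasting gene programmes, and Pdk1 (0.95 ± 0.24), a kinase of pyruvate dehydrogenase. Akt1, a kinase of insulin signalling, fell by 0.74, and Hif1a did not pass (0.34, edgeR adjusted p = 0.19). On average Ppargc1a (0.98) and Pdk1 (0.66) passed, and Hif1a (0.30) and Mlxipl (-0.26) did not.

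In labelled-KO WAT, Pfkfb1 rose and Pfkp fell on HSD. Pfkfb1 was 52.9, 47.3, 50.5 and 36.97 TPM in labelled KO on chow and 84.9, 73.2, 77.9 and 67.01 on HSD. All HSD libraries lay above all chow libraries. The log2 fold change was 0.83 ± 0.13 (SE, n = 4 per group, edgeR adjusted p = 0.00181 over 13255 genes). It stayed past the threshold when any single library was left out. Pfkp was 47.4, 57.1, 44.1 and 46.3 TPM on chow and 27.9, 23.3, 34.1 and 32.1 on HSD, also without overlap (-0.55 ± 0.15, edgeR adjusted p = 0.0419). Thus 2 of 7 members passed, where 6.38% of all genes did. Pfkfb2 had the largest fold change of the 7 and did not pass: it was 2.37, 2.24, 2.46 and 5.48 TPM on HSD against 0.502 to 3.21 on chow, with overlap (1.38 ± 0.44, edgeR adjusted p = 0.0698). DESeq2 called it (adjusted p = 0.0212), limma on log2(TPM + 1) did not (0.139), and edgeR called it without labelled-KO chow replicate 1 (2.03, adjusted p = 0.0109). Of 13242 genes DESeq2 called 624 higher and 780 lower. In these libraries the mean shares of summed TPM went from 46.6 to 36.01% for Pfkp, from 37.7 to 42.01% for Pfkl and from 15.7 to 21.98% for Pfkm.

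In CTRL WAT neither gene passed. Pfkfb1 was 63.99, 52.01, 70.4 and 56.8 TPM on chow and 70.95, 67.6, 62.4 and 68.6 on HSD, the groups overlapping (0.33 ± 0.13, edgeR adjusted p = 0.146). Pfkp was 34.7, 48.7, 45.01 and 47.7 on chow and 40.3, 40.96, 32.3 and 36.3 on HSD. For HSD against chow in CTRL 0 members and 4.77% of genes passed edgeR; Pfkl and Pfkfb1 had an unadjusted p under 0.05, and DESeq2 and limma called 0 members. The difference between the genotypes was itself tested: the interaction was 0.51 ± 0.18 for Pfkfb1 (edgeR adjusted p = 0.164), with 0 members and 0.573% of genes passing; Pfkfb1 and Pfkfb2 had an unadjusted p under 0.05, and DESeq2 and limma called 0 members. Averaged over the genotypes Pfkfb1 rose by 0.58 ± 0.09 (edgeR adjusted p = 0.00117), where 11% of genes passed, and Pfkp did not pass (-0.32 ± 0.11, edgeR adjusted p = 0.0637). DESeq2 (0.0495) and limma on log2(TPM + 1) (0.00437) called Pfkp in this average. So did edgeR without any 1 of 4 libraries (labelled-KO chow replicates 3 and 4, labelled-KO HSD replicate 4 and CTRL chow replicate 1), with adjusted p-values of 0.0388 to 0.0458. In this average limma on TPM leaned downward, with 246 genes higher and 2382 lower. There edgeR called 598 and 861, and DESeq2 871 and 1038.

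The Pfkp call in WAT was lost without the low-count filter (edgeR adjusted p = 0.0525), with only the groups compared (0.103), with the length trend removed (0.0673), without the 2 CTRL libraries on chow that showed a length trend (0.0522) and when any 1 of 8 libraries was left out (labelled-KO chow replicates 1 and 2, labelled-KO HSD replicates 1, 2 and 3, and CTRL HSD replicates 1, 2 and 4), down to -0.42 without labelled-KO chow replicate 2. With the clock score as a covariate Pfkp was at -0.02 (edgeR adjusted p = 1) and Pfkfb1 at 0.94 (edgeR adjusted p = 0.892), and 0 members passed; for the mean over genotypes Pfkfb1 still passed (edgeR adjusted p = 0.0441). The clock score was -1.59 to 0.09 in labelled KO on chow and 2.46 to 3.301 on HSD. As these did not overlap, score and diet cannot be told apart in labelled-KO WAT. Summed endothelial markers were 299 to 376 TPM on chow and 213 to 227 on HSD in labelled KO, with 1 of 5 genes lower, and summed fibroblast markers 2040 to 2620 and 1400 to 2100, with 2 of 4 lower. Summed macrophage markers were 873 to 1120 and 551 to 886, with 1 of 5 lower. The fall in endothelial markers was not particular to labelled KO. In CTRL WAT their sum was 247 to 364 TPM on chow and 166 to 205 on HSD, with 5 of 5 genes lower. There 2 of 5 macrophage genes and 0 of 4 fibroblast genes were lower. In labelled KO 1 of 6 adipocyte genes was lower, though 4 of 6 had a positive log2 fold change (median 0.22). Of the hepatocyte genes 1 of 5 was higher and was the only 1 with a positive log2 fold change (median -2.54). The part of these markers in the result was not tested.

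**Figure D3:**
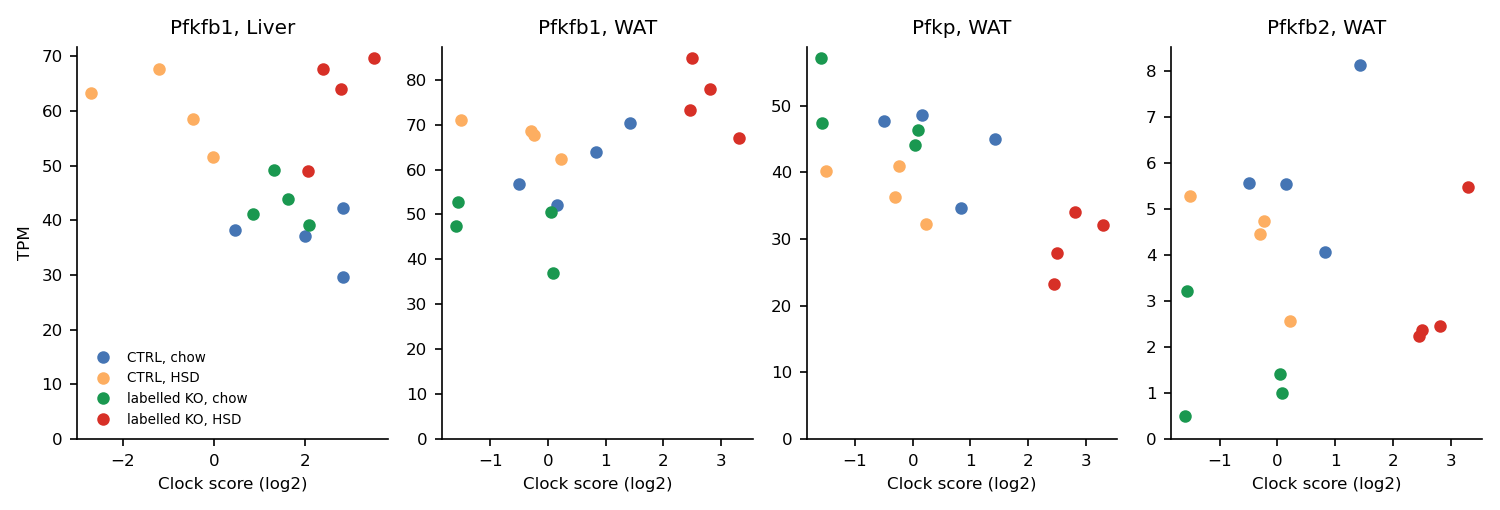
TPM of Pfkfb1 in liver and of Pfkfb1, Pfkp and Pfkfb2 in WAT (vertical axes, from 0) against the clock score of the same library (horizontal axis, log2); each point is 1 of 16 libraries, coloured by group. In WAT the 4 labelled-KO libraries on HSD stand apart at scores of 2.46 to 3.301, with Pfkp at 23.3 to 34.1 TPM, and in liver the CTRL libraries on HSD have the lowest scores and the labelled-KO libraries on HSD scores of 2.08 to 3.52.

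Pfkfb2 was lower in labelled-KO WAT on chow. Its TPM was 3.21, 0.502, 1.41 and 1.01 in labelled KO and 4.07, 5.56, 8.14 and 5.57 in CTRL. All labelled-KO libraries lay below all CTRL libraries, replicate 1 being well above the other labelled-KO libraries. The log2 fold change was -1.92 ± 0.43 (SE, n = 4 per group, edgeR adjusted p = 0.0156). It was the only 1 of 7 members to pass, where 6.68% of genes did. The gene is thinly covered in WAT, with 7.97 to 164.7 estimated counts per library. The call was lost without labelled-KO chow replicate 2 (edgeR adjusted p = 0.0562) or 4 (0.0627), with the length trend removed (0.0539), without the CTRL libraries that showed it (0.112) and with the clock score as a covariate (0.107). Albumin, a liver transcript, reached 272 TPM in these labelled-KO libraries and at most 18.1 in CTRL, and 3 of 5 hepatocyte markers tested were higher and 1 lower, as was 1 of 4 fibroblast markers. The part of these markers was not tested.

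On HSD the genotypes overlapped in Pfkfb2 in WAT, at 2.24 to 5.48 TPM in labelled KO and 2.56 to 5.28 in CTRL, and 0 members and 0.106% of genes passed edgeR there; Pfkp and Pfkfb3 had an unadjusted p under 0.05, and DESeq2 and limma called 0. The interaction for Pfkfb2 was 1.62 ± 0.59 (edgeR adjusted p = 0.164). Its genotype difference averaged over the diets was -1.11 ± 0.29 (edgeR adjusted p = 0.0513), where 0 members and 3.09% of genes passed. DESeq2 and limma each called Pfkfb2 in that average. Over all genes DESeq2 called 150 higher and 581 lower in it, and limma on log2(TPM + 1) 12 and 189. Pfkfb3, the most abundant of the family in WAT, passed in no comparison, its difference between labelled KO and CTRL on HSD included (306 ± 98 against 199.5 ± 51 TPM, SD, n = 4; edgeR adjusted p = 0.409).

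Other genes of glycolysis in WAT were tested beside them. In CTRL, 3 of 23 rose on HSD and 0 fell (median 0.32, all genes -0.04). In labelled KO, 3 of 23 rose and 1 fell, with a median of 0.24 against 0.00 for all genes. Slc2a4, the insulin-responsive glucose transporter, rose by 0.78 ± 0.11 (edgeR adjusted p = 0.000924), Hk2 by 0.68 ± 0.14 (edgeR adjusted p = 0.00986) and Ldhb by 0.30, and Hk1 fell by 0.42. Of the 18 regulators 4 rose and 0 fell: Pdk1 (0.81), Insr, the insulin receptor (0.53), and the lipogenic factors Srebf1 (0.84) and Mlxipl (0.83). Averaged over the genotypes 6 of 23 glycolysis genes rose and 1 fell, led by Slc2a4 (0.63), Ldhb (0.34), Gpi1 (0.32) and Hk2 (0.40), and 3 of 18 regulators rose, namely Pdk1 (0.80), Srebf1 (0.76) and Mlxipl (0.72), while Ppargc1a did not pass (0.60, edgeR adjusted p = 0.0719). Between the genotypes on chow 0 of 23 glycolysis genes passed, among the nearest being Hk1 (0.34, edgeR adjusted p = 0.0819), Ldhb (0.20) and Hk2 (-0.30). Of the 18 regulators 3 fell there, Nr3c1, the glucocorticoid receptor (-0.58), Insr (-0.70) and Prkaa1, a catalytic subunit of AMP kinase (-0.42), and Prkaa2 did not pass (-0.61, edgeR adjusted p = 0.0675).

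**Figure D4:**
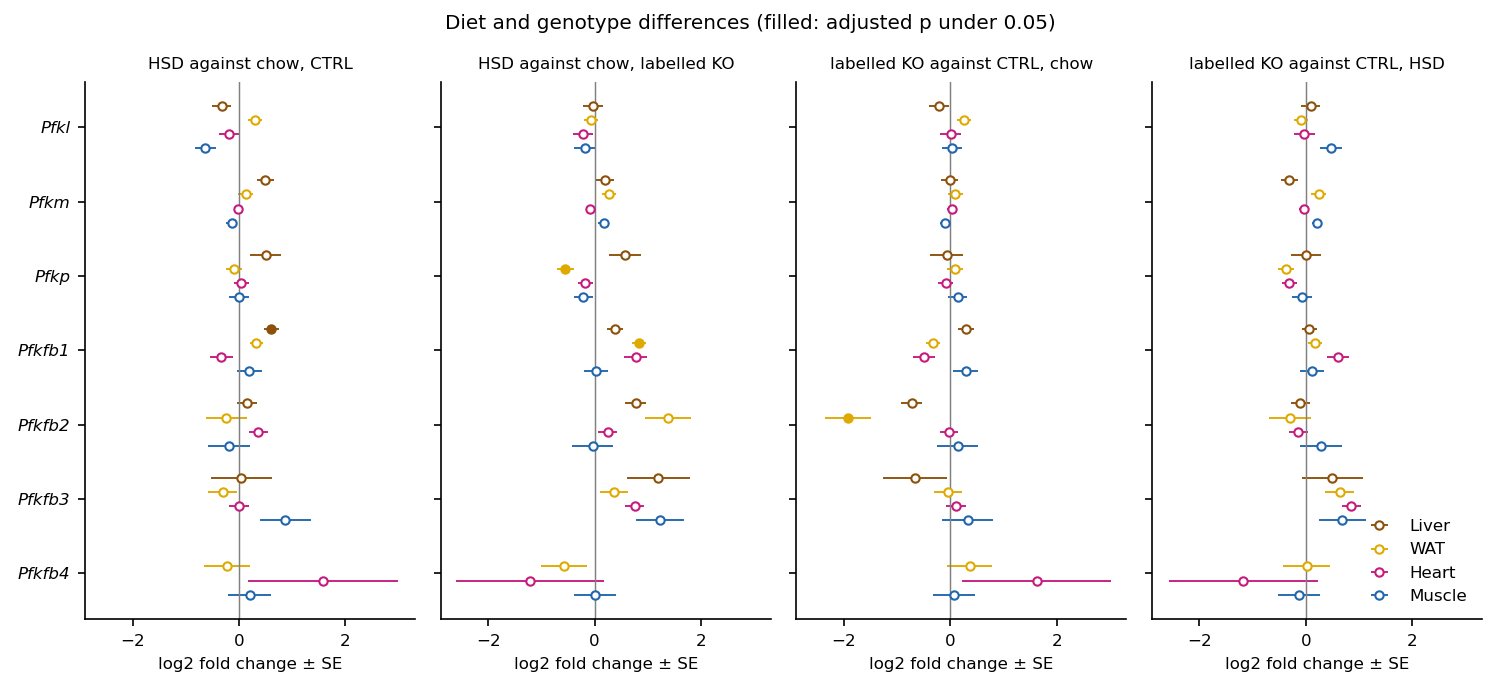
Log2 fold change on the count scale with its SE (horizontal axis) for each gene (rows) and tissue (colour) in the 4 comparisons of diet and genotype within a tissue, n = 4 libraries per group; filled points passed an edgeR adjusted p of 0.05 and Pfkfb4 is not shown in liver, where it was not tested. The filled points are Pfkfb1 in liver of CTRL, Pfkp and Pfkfb1 in WAT of labelled KO, and Pfkfb2 in WAT on chow.

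In heart 0 members passed in any of 7 comparisons by edgeR or by limma on log2(TPM + 1), and 12 of 49 tests had an unadjusted p under 0.05. Per comparison in heart, 447 to 1094 of all 12134 genes had such a p. The 7 comparisons share the same 16 libraries, so the 49 tests are not independent. Most of the 12 were for Pfkfb1 or Pfkfb3. Few genes of any kind passed there: 0% for genotype on chow, 0.0412% for genotype on HSD, 0.0247% for diet in CTRL, 0.140% for diet in labelled KO, 0.173% for the mean diet difference, 0% for the mean genotype difference and 0.00824% for the interaction. DESeq2 called Pfkfb3 in 2 of the 7. Of 12132 genes it called 14 higher and 11 lower for genotype on HSD. For diet in labelled KO it called 32 higher and 46 lower. Pfkfb3 was 2.66 to 2.905 TPM in labelled KO on HSD, above labelled KO on chow (1.70 to 2.29) and CTRL on HSD (1.29 to 2.09), with fold changes of 0.75 ± 0.18 (edgeR adjusted p = 0.125) and 0.85 ± 0.18 (edgeR adjusted p = 0.193).

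In heart the diet groups of Pfkfb1 lay in opposite order in the genotypes. On chow and HSD it was 7.42, 8.45, 6.78 and 7.14 and then 5.98, 5.90, 2.82 and 6.44 TPM in CTRL, and 4.76, 5.15, 6.93 and 3.95 and then 8.76, 7.88, 8.66 and 7.01 in labelled KO. In TPM neither pair of groups overlapped, HSD being the lower group in CTRL and the higher in labelled KO. In CTRL the estimated counts, not scaled for depth, did overlap, at 101.3 to 160.3 on chow and 44.8 to 110.7 on HSD. Replicate 3 of CTRL on HSD, at 2.82 TPM, stood far from the rest of its group. None of the differences passed: -0.33 ± 0.21 in CTRL (edgeR adjusted p = 0.927), 0.77 ± 0.21 in labelled KO (edgeR adjusted p = 0.207) and 1.10 ± 0.30 for the interaction (edgeR adjusted p = 0.453). In labelled-KO heart the clock score and diet cannot be told apart. The clock score in heart was -1.39 to 0.63 in the other libraries and 1.32 to 2.04 in labelled KO on HSD. With it as a covariate the difference was 0.47 in labelled KO (edgeR adjusted p = 0.999) and 0.75 for the interaction (edgeR adjusted p = 1). Pfkm, the main form, was 280 ± 24 and 255 ± 27 TPM in CTRL and 290 ± 36 and 247 ± 42 in labelled KO on chow and HSD (SD, n = 4). On counts its diet difference was -0.02 ± 0.09 in CTRL (edgeR adjusted p = 0.9996) and -0.08 ± 0.09 in labelled KO (edgeR adjusted p = 0.918).

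In muscle 0 members passed in any of 7 comparisons by edgeR, DESeq2 or limma on log2(TPM + 1), with 7 of 49 unadjusted p-values under 0.05. Per comparison in muscle, 624 to 1804 of all 12092 genes had such a p. As in heart, the 7 comparisons share 16 libraries and the 49 tests are not independent. The shares of all genes passing were 0% for genotype on chow and on HSD, 0.0910% for diet in CTRL, 0.00827% for diet in labelled KO, 1.12% for the mean diet difference and 0% for the mean genotype difference and the interaction. Pfkm, at 569 ± 33 TPM in CTRL on chow, 543 ± 36 in CTRL on HSD, 550 ± 43 in labelled KO on chow and 620 ± 63 in labelled KO on HSD (SD, n = 4), did not pass in any comparison. Pfkfb3 was 2.10 ± 0.19 TPM in CTRL on chow and 3.92 ± 1.0 on HSD, without overlap, and 2.66 ± 1.0 and 6.44 ± 4.5 in labelled KO, with overlap (mean over genotypes 1.05 ± 0.33, edgeR adjusted p = 0.143). Pfkl, at 3.48 ± 0.66 and 2.42 ± 0.62 TPM in CTRL on chow and HSD, had a mean diet difference of -0.41 ± 0.14 (edgeR adjusted p = 0.158). Of the other genes of glycolysis 0 of 20 tested passed for the mean diet difference in muscle and 1 of 20 in heart, where it was higher; of the regulators 1 of 18 passed in muscle, where it was higher, and 0 of 18 in heart.

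The diet differences of liver were then set against those of the other tissues in 1 fit of all 64 libraries and 14592 genes. Pfkp alone passed edgeR, between WAT and liver (-0.85 ± 0.22, edgeR adjusted p = 0.00749), where 10.6% of genes passed; DESeq2 called Pfkp there, and limma on log2(TPM + 1) called Pfkm and Pfkp. In liver Pfkp was 0.733 TPM on chow and 1.31 on HSD as means over the genotypes, and in WAT 46.4 and 33.4. Against liver, 0 members passed for heart (1.84% of genes) or muscle (4.24%); Pfkm and Pfkp had an unadjusted p under 0.05 for heart, and Pfkm, Pfkp and Pfkfb1 for muscle. DESeq2 called 0 for both, and limma on TPM called Pfkm, Pfkp and Pfkfb1 for heart and 0 for muscle. The calls of limma over all 14592 genes leaned to lower. They were 305 higher and 4036 lower for WAT, and 97 and 2079 for heart. Pfkfb1, which passed in liver and WAT, had a difference between their diet effects of 0.10 ± 0.18 (edgeR adjusted p = 0.83). For the genotype differences against liver 0 members passed for WAT (0.678% of genes), heart (0.0137%) or muscle (0.0822%), by edgeR, DESeq2 or limma; Pfkm and Pfkfb2 for WAT and Pfkfb2 for muscle had an unadjusted p under 0.05, and none for heart. All 6 comparisons share the liver libraries.

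The genes whose pattern was most like each member's were ranked by Pearson's r of log2(TPM + 1), over the 16 group means (12160 genes compared) and over the 16 libraries of the tissue where the member is highest. The 16 means share 4 tissues, so high values there mostly follow the tissue. Pfkm was nearest to Sh3bgr (0.998), Ldb3 (0.998) and Sptb (0.997), and within muscle to Gpi1 (0.875), phosphoglucose isomerase, Phkg1 (0.836), a subunit of phosphorylase kinase, and Cib2 (0.835). Pfkfb1 was nearest to Vmp1 (0.984), Scd1 (0.983), the fatty acid desaturase, and Igbp1 (0.981), and within WAT to Dixdc1 (0.881), Suclg2 (0.878) and Angpt1 (0.875). Pfkp was nearest to Pvr (0.998), Camk1 (0.996) and Macf1 (0.995), and within WAT to Col4a1 (0.918), a basement membrane collagen, Hr (0.902) and Col5a1 (0.901). Pfkl was nearest to Inafm2 (0.989), 2210016F16Rik (0.980) and Mpv17 (0.976), and within WAT to Mbd3 (0.900) and Asna1 (0.891), among others.

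Pfkfb3 was nearest to Fbxl4 (0.995), Anxa7 (0.994) and Ypel5 (0.993), and within WAT to Pik3cb (0.866), a catalytic subunit of phosphoinositide 3-kinase, with Supt5 (0.740) and Bak1 (0.724) after it. Pfkfb2 had the lowest values over the means, with Chmp4c (0.924), Fgd4 (0.922) and Tmem144 (0.919), and within heart had Snrnp48 (0.843), Rnf34 (0.837) and Map1lc3b (0.792). Pfkfb4 was nearest to Capn1 (0.990), Eif5b (0.990) and Vapb (0.990), and within WAT to Polr3c (0.778), Prss27 (0.775) and Tmem106a (0.756).

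Estimated counts divided by TPM, scaled per library, follow the mean length of the transcripts assigned to a gene. Relative to each gene's own mean, the median of a tissue lay between 0.962 and 1.09 for every member and tissue with a value. For Pfkfb1 it was 1.05 in liver (1.01 to 1.06) and 0.976 in WAT (0.951 to 0.988), ranges that do not overlap. For Pfkm, WAT had 0.962 against 1.01 to 1.02 in the other tissues, and for Pfkfb3 the medians were 1.02 to 1.03 in all 4.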

How the data were processed

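For each of 64 libraries the authors deposited expected counts (estimated counts) and TPM by gene, made with kallisto on GRCm38 per the submitters' processing notes. Its version, the annotation release and any use of strand: not given in the sources used here. TPM summed to 816010 to 926964 per library. Counts were rounded, then tested by quasi-likelihood in edgeR 4.0.16 (R 4.3.3; TMM; filterByExpr, minimum count 10; robust), one fit per tissue, one of the 16 CTRL chow libraries and one of all 64. P-values were 2-sided and adjusted by Benjamini-Hochberg over all genes tested, at 0.05; the SE is the log2 fold change over the square root of F. The members and lists were chosen with earlier results of these data known. Named are the members, up to 4 genes per list with the smallest p where a member passed, and the 3 genes most like each member (mean TPM of at least 1). Some genes that this rule names are not reported here. Albumin and the promoter windows shown were chosen after their values were seen. Alternatives were DESeq2 1.42.0 (size factors, or its Wald test), limma 3.58.1 on log2(TPM + 1) or log2(TPM + 0.1), no filter, only the groups compared, the clock score as covariate, a length trend removed, a block for the title number, and each library left out; in the 64-library fit these omissions kept the genes and dispersion trend. Leaving out libraries with a length slope beyond 0.1 was chosen after seeing the data. Per comparison, 660 to 2420 of 11259 genes had an unadjusted p under 0.05 in liver and 1409 to 3509 of 13255 in WAT. In the 64-library fit 1222 to 3600 of 14592 genes did. Of 96 replicate pairs none was a duplicate (lowest chi-square per degree of freedom 4.421). On simulated counts for HSD against chow in CTRL, 2-fold changes were recovered in 64.8% of cases in liver (11259 genes), 63.4% in WAT (13255), 65.2% in heart (12134) and 68.5% in muscle (12092). Recovery of 1.5-fold changes was 32.4% in liver, 28.4% in WAT, 41.4% in heart and 51.7% in muscle.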

Additional observations from a re-analysis of the deposited data

Results flagged for a closer look

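In 15 of 112 combinations of member and group of 4 libraries, 1 library stood far from the other 3; chance flags about 1 in 20 groups. Among the phosphofructokinase genes these were Pfkl in heart, labelled KO on HSD, replicate 4 (7.442 TPM), Pfkm in liver, labelled KO on chow, replicate 2 (6.965), and Pfkm in WAT, CTRL on HSD, replicate 4 (16.78). For Pfkp they were liver, CTRL on HSD, replicate 2 (2.395), muscle, CTRL on HSD, replicate 3 (5.29), and muscle, labelled KO on chow, replicate 2 (3.127, the lowest of its group).

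Among the bifunctional genes they were Pfkfb1 in heart, CTRL on HSD, replicate 3 (2.822 TPM, the lowest), Pfkfb2 in WAT, labelled KO on HSD, replicate 4 (5.48), and Pfkfb3 in heart, labelled KO on chow, replicate 2 (2.285). Pfkfb4 stood out at very low levels, in liver in CTRL on chow replicate 4 (0.1466), CTRL on HSD replicate 4 (0.2564) and labelled KO on chow replicate 1 (0.247), where the other libraries were at 0. In heart it stood out in CTRL on chow replicate 3 (0.3899) and labelled KO on HSD replicate 3 (0.5103), and in WAT in labelled KO on HSD replicate 4 (1.862, the lowest).

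The mean diet difference of Pfkp differed between WAT and liver by -0.85 (log2; edgeR adjusted p = 0.00749), with 10.6 to 38.4 estimated counts per library behind the liver values.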

How the results depend on the processing

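Counts of members passing depended on the setting in 11 comparisons of diet or genotype, and in pairs of tissues with WAT. In those pairs limma called 7 for heart against WAT and 5 for muscle against WAT, where edgeR called 6. Pfkfb1 in muscle against WAT was lost without WAT CTRL chow replicate 3 or muscle CTRL chow replicate 2. For HSD against chow in CTRL liver (1 member), DESeq2 called 2, the clock score as covariate 0 and the fit without libraries of a length slope 0; single omissions gave 0 to 1. For the mean diet difference in liver (1), DESeq2 called 2, limma 3 with either pseudocount and the clock covariate 0; omissions gave 1 to 2. For labelled KO against CTRL in WAT on chow (1), the clock covariate, the length trend removed and the length-slope libraries left out each gave 0; omissions gave 0 to 1. For HSD in labelled-KO WAT (2), no filter, the length trend removed, only the groups compared and the length-slope libraries left out each gave 1 and the clock covariate 0, while DESeq2 called 3 (Pfkfb2 added); omissions gave 1 to 2. For the mean diet difference in WAT (1), DESeq2 and limma with either pseudocount called 2; omissions gave 1 to 2. For the mean genotype difference in WAT (0), DESeq2 and limma with either pseudocount called 1; omissions gave 0 to 1. In heart, DESeq2 called 1 for genotype on HSD and 1 for HSD in labelled KO, against 0. Between tissues, limma called 2 for WAT against liver (1) and 3 for heart against liver (0); omissions gave 0 to 1 for heart and for muscle against liver. The cause was not tested. Pfkp for genotype on HSD turned from -0.37 to 0.10 in WAT and from -0.31 to 0.13 in heart under the clock covariate. On HSD the score did not overlap between the genotypes in either tissue, so score and genotype cannot be told apart there. On TPM, WAT against liver became 0.71 for Pfkfb1 and 0.058 for Pfkfb2, Pfkl in heart against WAT became -0.93 and Pfkfb2 in muscle against WAT -0.17. The replicate block by title number changed none of 12 counts and 45 single values (Pfkp for the mean diet difference of WAT against liver was -0.83 with the block, edgeR adjusted p = 0.00976); the numbers are not said to mark a mouse, same-numbered libraries correlated at -0.065 to 0.326, and 67 of 96 correlated best with their own number. Shares computed from estimated counts moved by more than 1 SD in 64 of 112 cases. Pfkfb4 in liver and heart, Pfkp in liver and Pfkfb2 in WAT are limited by depth.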
